A study of Rattus norvegicus with 24 samples.

Results

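A set of 5 genes of antigen presentation was followed through every library of the series: the invariant chain Cd74 (ENSRNOG00000018735), the class II chains RT1-Da (ENSRNOG00000032844), RT1-Ba (ENSRNOG00000000451) and RT1-Bb (ENSRNOG00000032708), and the class I light chain B2m (ENSRNOG00000017123). They were picked by gene ID from the 31998 genes of the deposited count table, and 5 of 5 were present and were among the 16661 genes with enough counts to be tested. The RNA came from plantaris muscle of the calf, taken from 14 month old female rats of generation 19 of the HRT and LRT lines, which were bred for a high and a low gain in running capacity with endurance training. Each line gave 6 control and 6 overload libraries, 24 in all. In the overload groups the gastrocnemius and soleus of 1 side had been removed and the plantaris was collected 14 days later. The labels name no transgene, drug or pooling, and they do not say whether the control muscles are from other animals or from the opposite leg.

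MHC class II molecules are pairs of an alpha and a beta chain that hold peptides from engulfed material at the surface of macrophages, dendritic cells and B cells, where CD4 T cells read them. Cd74, the invariant chain, escorts new class II pairs and fills their groove until a peptide replaces it. B2m is the light chain of MHC class I, which nearly all nucleated cells carry, and interferon gamma raises both systems. In rats the MHC is called RT1, and its B and D loci are the counterparts of mouse A and E and of human DQ and DR. Class II genes and Cd74 are switched on through a shared promoter layout of S, X and Y boxes, on which RFX, CREB and NF-Y proteins assemble and recruit the coactivator CIITA. Skeletal muscle fibres carry little class II at rest, whereas macrophages and dendritic cells between them carry it.

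The promoters of the 5 genes are shown first. The stretches run from 200 to 31 bases before the RefSeq start (build GRCr8, not the build of the counts), 5′ to 3′ on the gene's own strand, and 5 of 5 members were matched by symbol. Capitals mark matches on either strand to CTGATTGG (a Y box), ATTGG (its CCAAT core, contained in the former), GCAAC (part of many X boxes), TGACG (the core of a cyclic AMP response element) and GAAANNGAA (the core of an interferon response element). RT1-Da lies at chr20:4515215-4515384 (+), RT1-Ba at chr20:4576857-4577026 (+), RT1-Bb at chr20:4604149-4604318 (−), Cd74 at chr18:56527006-56527175 (+) and B2m at chr3:129549130-129549299 (+).
RT1-Da: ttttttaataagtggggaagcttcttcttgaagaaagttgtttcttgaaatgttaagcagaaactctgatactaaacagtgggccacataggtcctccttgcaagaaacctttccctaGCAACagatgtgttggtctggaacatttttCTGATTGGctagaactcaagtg
RT1-Ba: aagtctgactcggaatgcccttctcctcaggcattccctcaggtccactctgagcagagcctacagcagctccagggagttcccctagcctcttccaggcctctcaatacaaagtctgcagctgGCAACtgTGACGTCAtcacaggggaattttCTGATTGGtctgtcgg
RT1-Bb: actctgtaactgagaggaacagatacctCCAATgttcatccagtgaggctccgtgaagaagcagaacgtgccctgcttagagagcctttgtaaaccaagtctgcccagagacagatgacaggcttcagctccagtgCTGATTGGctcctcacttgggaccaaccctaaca
Cd74: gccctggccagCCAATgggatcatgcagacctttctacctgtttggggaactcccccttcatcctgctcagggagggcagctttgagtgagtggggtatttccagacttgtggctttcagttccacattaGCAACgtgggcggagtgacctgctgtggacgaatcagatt
B2m: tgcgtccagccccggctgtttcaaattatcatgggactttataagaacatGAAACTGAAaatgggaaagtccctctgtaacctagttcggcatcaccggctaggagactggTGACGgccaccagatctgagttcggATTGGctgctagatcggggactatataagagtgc

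The 3 class II chains held the Y box CTGATTGG close to the start, first base at −52 in RT1-Da, −46 in RT1-Ba and −64 in RT1-Bb. The motifs were spelled after these promoters had been read, so the shares of promoters given here are descriptions, not tests. Of 33469 RefSeq promoters, 3.19% hold CTGATTGG within the 250 bases before the start. Cd74 and B2m had no CTGATTGG in that window, but ATTGG lay at −64 in B2m and on the other strand at −189 in Cd74 and, besides its Y box, at −172 in RT1-Bb (34% of promoters hold it). GCAAC lay at −82 in RT1-Da, −76 in RT1-Ba and −70 in Cd74 (29.5% of promoters). In both RT1-Da and RT1-Ba, GCAAC began 30 bases before CTGATTGG. That spacing on 1 strand was chosen after it had been seen in these promoters, and 5 of 33469 promoters have it: RT1-Da, RT1-Ba, RT1-DOa, RT1-Ha and Stard7. RT1-Ba held TGACG on both strands between these boxes, at −69 and −66, and B2m held it at −89 (18.2% of promoters). GAAANNGAA was found in B2m alone of the 5, at −150 (8.12% of promoters). The map of motif matches sets these positions side by side. A match is a description of the letters and does not show that a factor binds there.

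**Figure D1:**
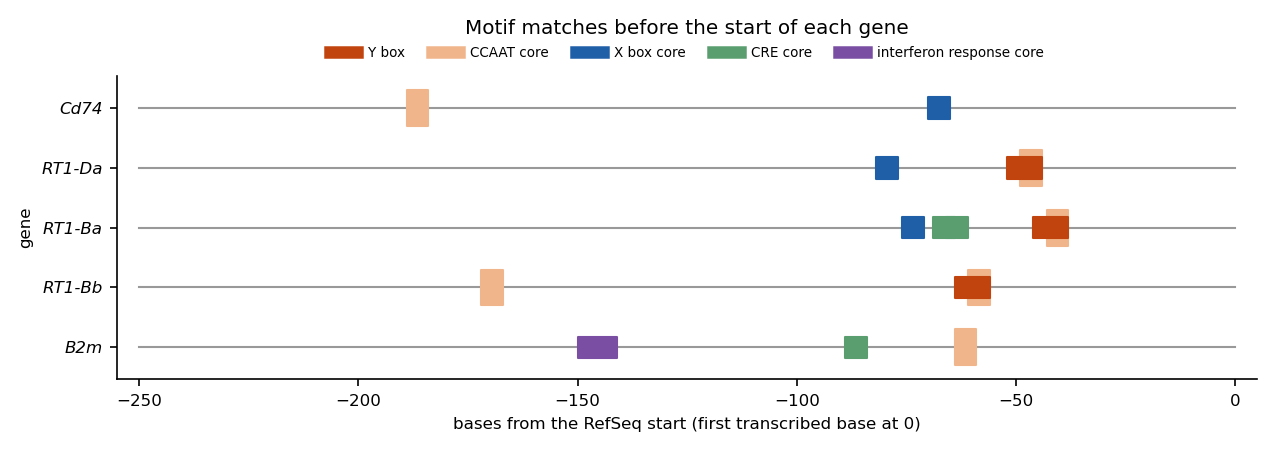
Matches to 5 motifs on either strand in the 250 bases before the RefSeq start of each gene (horizontal axis, bases from the start). Bars span the matched bases. The Y box sits between −64 and −39 in the 3 class II chains, and the interferon response core appears in B2m, at −150.

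Library totals ran from 26997324 to 34255103 estimated counts, and values below are CPM, counts relative to library size after scaling by the trimmed mean of M values. RNA integrity numbers (RIN) moved with overload: 8.27 ± 0.216 (SD, n = 6) in HRT control, 8.97 ± 0.327 in HRT overload, 8.28 ± 0.147 in LRT control and 8.67 ± 0.258 in LRT overload. The table does not pair IDs with names, and 0 IDs matched the name table used here. Muscle and immune cell markers and the other genes of the pathway were therefore not analysed here. RT1 genes differ between rat strains and have close relatives, so the alleles of these lines may differ from the reference and reads may be divided unevenly between copies. The part this plays in the RT1 values was not tested.

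The first question was what overload did to these genes in HRT muscle. The 5 genes rose, the class II side about 3.35-fold to 4.45-fold and B2m 2.02-fold. Called genes numbered 5 of 5 members, upward in each case, against 31.9% of all tested genes called upward and 63.2% called in either direction (edgeR quasi-likelihood test, adjusted p under 0.05). The members' median log2 fold change was 1.78, and that of all tested genes was −0.02. With libraries scaled by their totals alone, the median of all genes moved to 0.27 and 78.0% of called genes were upward, against 50.6% with the main scaling. The members stayed upward and called. In whole muscle, more antigen-presenting cells and more RNA per cell cannot be told apart.

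Cd74, which escorts class II pairs through the cell, ran from 26.2 CPM (replicate 5) over a median of 32.5 to 78.7 (replicate 4) in HRT control, and from 116 (replicate 5) over 129 to 178 (replicate 6) in HRT overload. Each overloaded library was above each control, and replicate 4 stood apart from the other controls. On the log2 scale the rise was 1.78 ± 0.227 (SE, here and below; edgeR adjusted p = 5.54e-07), with 6.29% of tested genes rising further. Without HRT control replicate 4 it was 2.09 (edgeR adjusted p = 3.36e-09).

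RT1-Da, the alpha chain of the D pair, was at 12.3 to 26.6 CPM in HRT control (median 12.8) and at 45.4 to 89.4 in HRT overload (median 55.2). In control, 4 libraries lay close together at the bottom, below replicates 3 and 4, and no control reached the lowest overloaded library. RT1-Da rose by 1.94 ± 0.215 log2 units (edgeR adjusted p = 8.31e-08). RT1-Ba, the alpha chain of the B pair, ran from 7.29 over 8.63 to 20.8 CPM in control and from 24.0 over 36.7 to 43.6 in overload. Replicate 4 was again the highest control and came near the lowest overloaded library, also a replicate 4, without overlap. RT1-Ba rose by 1.74 ± 0.216 log2 units (edgeR adjusted p = 3.89e-07).

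RT1-Bb, the beta chain that pairs with RT1-Ba, had the widest range. It was at 3.89 to 12.1 CPM in HRT control (median 5.84) and at 12.9 to 61.4 in HRT overload (median 27.6). Overload replicate 5 lay just above the highest control, and overload replicate 6 stood far above the rest. Its rise was 2.15 ± 0.367 log2 units (edgeR adjusted p = 2.97e-05). With RIN as a covariate it was 1.64 (edgeR adjusted p = 0.00965). With RIN and the replicate number as a block together it was 1.21 and no longer called (edgeR adjusted p = 0.0838). Over 23 settings the adjusted p of RT1-Bb ran from 1.54e-08 (DESeq2 Wald test) to 0.0838 (edgeR, that fit).

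B2m, the class I light chain, ran from 132 over 176 to 197 CPM in HRT control and from 298 over 322 to 455 in HRT overload. The highest library, overload replicate 6, was also the highest for Cd74, RT1-Da and RT1-Bb. B2m rose by 1.01 ± 0.118 log2 units (edgeR adjusted p = 1.15e-07), and 15.4% of tested genes rose further. Its 95% interval of 0.77 to 1.26 lay below those of Cd74 (1.32 to 2.25), RT1-Da (1.49 to 2.38), RT1-Ba (1.30 to 2.19) and RT1-Bb (1.39 to 2.91). With RIN as a covariate the HRT log2 fold changes of Cd74, RT1-Da, RT1-Ba and B2m were 1.72, 1.86, 1.72 and 0.85, each called (edgeR adjusted p = 3.88e-05 to 0.00031).

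**Figure D2:**
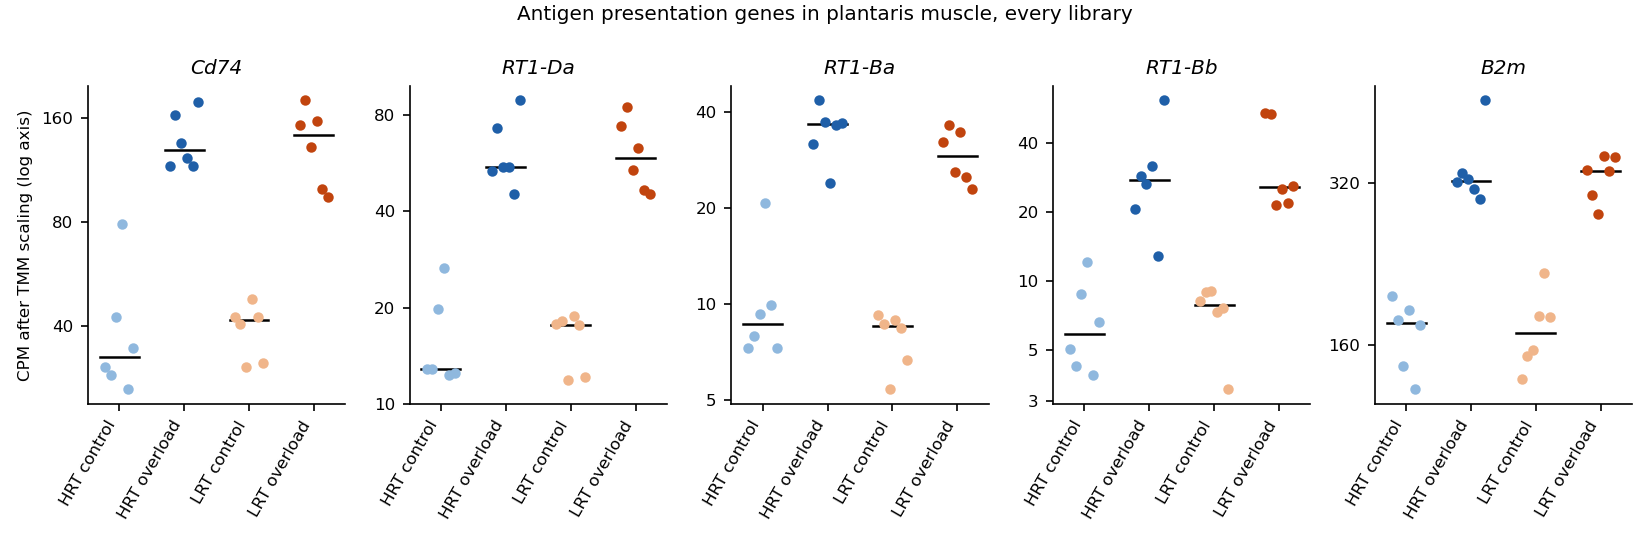
CPM of each gene (vertical log axis) in the 24 libraries, 6 per group, with the group median as a bar. The overloaded libraries of each line lie above the controls of that line for the 5 genes. HRT control replicate 4 is the high control point for Cd74, RT1-Da, RT1-Ba and RT1-Bb.

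In LRT muscle the same 5 genes were called upward, against 28.9% of tested genes called upward and 57.2% called in either direction (edgeR). The members' median log2 fold change was 1.91, beside −0.02 for all tested genes. Scaled by totals alone, the median of all genes was 0.22 and 78.1% of called genes were upward, against 50.5%. The members again stayed upward and called.

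Cd74 ran from 30.4 CPM (replicate 3) over 41.5 to 47.8 (replicate 4) in LRT control, and from 94.3 (replicate 6) over 143 to 180 (replicate 2) in LRT overload. The overloaded libraries spread over a wider range than the controls, with replicates 5 and 6 at the bottom, and the groups did not overlap. Cd74 rose by 1.80 ± 0.227 log2 units (edgeR adjusted p = 9.22e-07). RT1-Da was at 11.9 to 18.8 CPM in control (median 17.6) and at 45.4 to 85.2 in overload (median 58.7). It had the same lowest and highest libraries as Cd74 in both states, and it rose by 1.94 ± 0.216 log2 units (edgeR adjusted p = 1.7e-07).

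RT1-Ba ran from 5.41 over 8.54 to 9.21 CPM in LRT control and from 23.1 over 29.2 to 36.5 in LRT overload. The lowest overloaded library was 2.50 times the highest control, against 1.16 times in HRT, where the highest control was replicate 4 and the next highest lay at 9.91 CPM. The rise of RT1-Ba was 1.91 ± 0.22 log2 units (edgeR adjusted p = 2.65e-07). RT1-Bb ran from 3.37 over 7.88 to 9.03 CPM in control and from 21.5 over 25.6 to 54.3 in overload. Overload replicates 1 and 2 lay together near the top and the other 4 libraries well below them. The rise of RT1-Bb was 2.18 ± 0.366 log2 units (edgeR adjusted p = 3.42e-05), and 1.57 with the block and RIN together (edgeR adjusted p = 0.00499). Over 23 settings its adjusted p ran from 1.24e-08 (DESeq2 Wald test) to 0.00499 (edgeR, that fit).

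B2m ran from 138 over 168 to 217 CPM in LRT control and from 279 over 337 to 358 in LRT overload, a rise of 0.94 ± 0.118 log2 units (edgeR adjusted p = 6.08e-07). The overloaded libraries lay closer together than in HRT, where replicate 6 stood apart at 455 CPM, and none overlapped a control. Without that library the HRT overloaded libraries ran from 298 to 333 CPM, a narrower range than in LRT. With RIN as a covariate the LRT log2 fold changes of Cd74, RT1-Da, RT1-Ba, RT1-Bb and B2m were 1.76, 1.89, 1.90, 1.86 and 0.85, each called (edgeR adjusted p = 3.33e-06 to 0.000815). In both lines 5 of 5 genes had each overloaded library above each control of the same line. Among all tested genes, 21.4% did so in HRT and 17.3% in LRT.

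The next question was whether the lines differed in this response. Testing LRT against HRT for the size of the response called 0 of 5 genes, against 0.0480% of all tested genes (edgeR). An unadjusted p under 0.05 was found for 0 of 5, against 2265 of all 16661 tested genes (edgeR). With 5 genes, a count of 0 does not show that the lines are alike. The differences, LRT minus HRT on the log2 scale, were 0.01 for Cd74 (95% interval −0.63 to 0.66), 0.00 for RT1-Da (−0.61 to 0.61), 0.17 for RT1-Ba (−0.46 to 0.79), 0.03 for RT1-Bb (−1.02 to 1.08) and −0.07 for B2m (−0.41 to 0.27). The edgeR adjusted p ran from 0.84 to 1.00. The interval was narrowest for B2m and widest for RT1-Bb, where differences of 1 log2 unit either way lay inside it. Without HRT control replicate 4 the differences were −0.30 for Cd74, −0.20 for RT1-Da, −0.16 for RT1-Ba and −0.22 for RT1-Bb (edgeR adjusted p = 0.612, 0.785, 0.795 and 0.886), each below 0 and none called. The DESeq2 Wald test and limma-voom called 0 of the 5 as well.

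Between the lines within a state, 0 of 5 genes were called in control muscle, against 1.97% of tested genes (edgeR). In overloaded muscle 0 of 5 were called, against 3.09% (edgeR). An unadjusted p under 0.05 was found for 0 of 5 in either state (edgeR). Among all 16661 tested genes it was found for 2772 in control and 3713 in overloaded muscle. DESeq2 and limma-voom called 0 of 5 in either state. RT1-Ba had the lowest value for LRT against HRT in both states. In control muscle it was −0.41 (95% interval −0.86 to 0.05, edgeR adjusted p = 0.362), or −0.08 without HRT control replicate 4 (edgeR adjusted p = 0.868), and in overloaded muscle −0.24 (−0.67 to 0.19, edgeR adjusted p = 0.522). In control muscle, 3 HRT libraries were above each LRT library, and 2 LRT libraries were below each HRT library. Cd74 differed by −0.04 (−0.50 to 0.42) in control and −0.03 (−0.48 to 0.43) in overloaded muscle, RT1-Da by −0.01 (−0.45 to 0.43) and −0.01 (−0.44 to 0.41), RT1-Bb by 0.12 (−0.64 to 0.89) and 0.15 (−0.56 to 0.86), and B2m by 0.02 (−0.22 to 0.26) and −0.05 (−0.29 to 0.19). The plot of contrasts shows these intervals next to those of the overload responses.

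**Figure D3:**
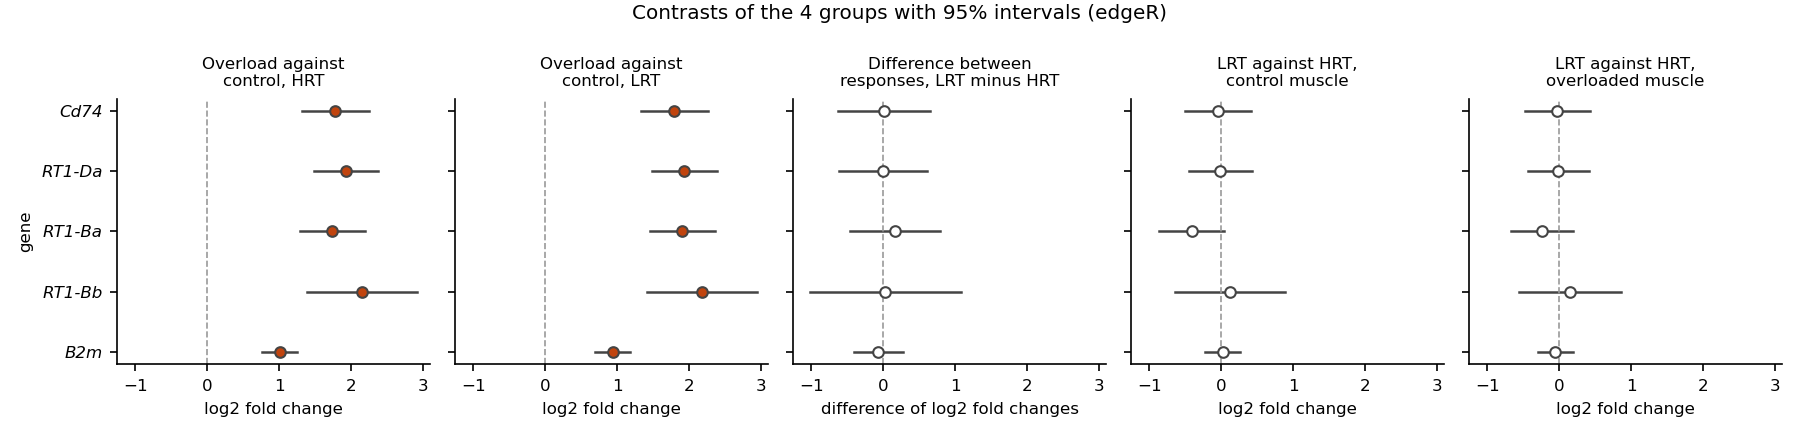
Log2 fold changes, or their difference between lines, with 95% intervals (horizontal axis) for 5 contrasts. Filled points had an edgeR adjusted p under 0.05. Overload intervals lie above 0 in both lines, those of B2m below 1.3, and the intervals of the other 3 contrasts span 0.

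Libraries of 1 group differed from each other in these genes. To see how far the others followed it, Cd74 was correlated with each other gene over the 6 libraries of each group, 16 relations in all, with exact permutation p-values adjusted by Benjamini-Hochberg. By Pearson's r, 5 of 16 passed (4 with a class II chain and 1 with B2m), and by Spearman's rho 2 of 16. With RT1-Da, r was 0.949 in HRT control (exact adjusted p = 0.0644), 0.954 in HRT overload (exact adjusted p = 0.0296), 0.974 in LRT control (exact adjusted p = 0.0571) and 0.948 in LRT overload (exact adjusted p = 0.0333). The matching rho were 0.771, 0.943, 0.829 and 0.943 (exact adjusted p = 0.183, 0.0533, 0.117 and 0.0533). Without the 2 libraries farthest from the median of Cd74, r was 0.09, 0.58, 0.764 and 0.916 over the other 4. Dropping the extremes of Cd74 narrows its range, which tends to lower r. What the relation in HRT control rested on cannot be told from 4 libraries.

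RT1-Ba followed Cd74 in LRT overload, with r = 0.95 and rho = 1 (exact adjusted p = 0.0222 for both), and r was 0.947 without the 2 farthest libraries. In HRT overload and LRT control, its r was 0.564 and 0.922 (exact adjusted p = 0.293 and 0.0571). The matching rho were 0.6 and 0.886 (exact adjusted p = 0.387 and 0.0889). In HRT control, r was 0.862 (exact adjusted p = 0.253; rho = 0.257, exact adjusted p = 0.752) and turned to −0.85 without the 2 farthest libraries, replicate 4 being one of them. RT1-Bb followed Cd74 in HRT control, with r = 0.948 and rho = 1 (exact adjusted p = 0.0222 for both) and r = 0.986 without those libraries. In LRT control its r was 0.411 and its rho −0.371 (exact adjusted p = 0.708 and 0.663). In HRT overload and LRT overload, its r was 0.796 and 0.659 (exact adjusted p = 0.0642 and 0.259). The matching rho were 0.829 and 0.371 (exact adjusted p = 0.117 and 0.663). B2m followed Cd74 in HRT overload, with r = 0.826 (exact adjusted p = 0.0356; rho = 0.943, exact adjusted p = 0.0533), and r was 0.633 without the 2 farthest libraries. In HRT control, LRT control and LRT overload, r of B2m was 0.291, 0.128 and −0.316 (exact adjusted p = 0.677 to 0.856), with rho of 0.314, 0.143 and −0.086 (exact adjusted p = 0.694 to 0.919).

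**Figure D4:**
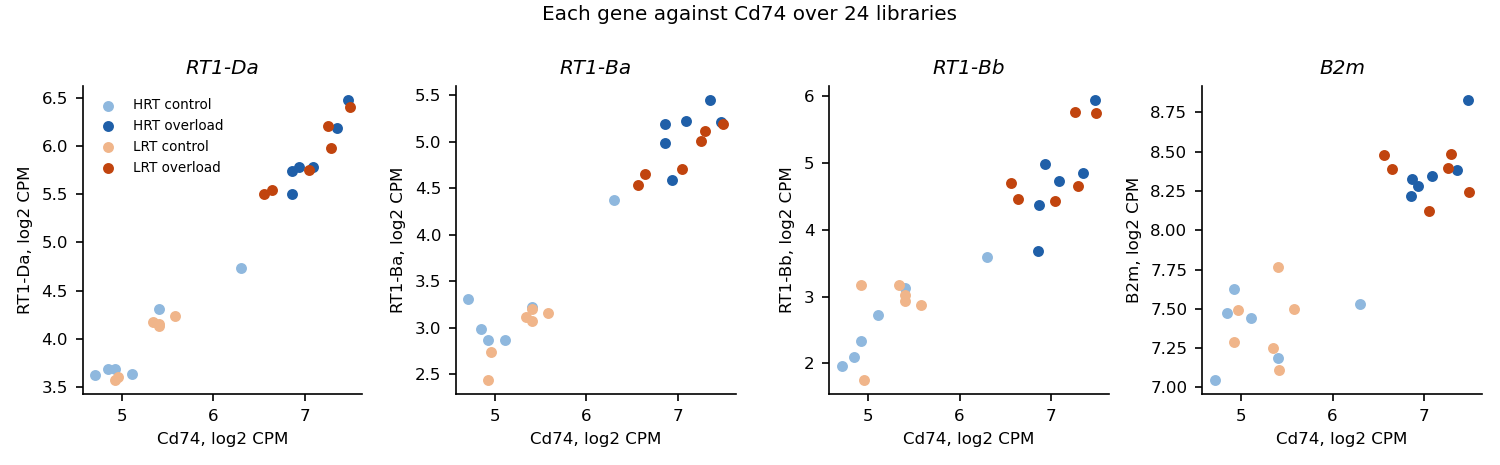
Log2 CPM of RT1-Da, RT1-Ba, RT1-Bb and B2m (vertical) against Cd74 (horizontal), 1 point per library, coloured by group. RT1-Da lies in a narrow band from controls to overloaded libraries, while RT1-Bb and B2m scatter more within groups. The single HRT control point between the clusters is replicate 4.

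As a description of likeness over the whole table, genes whose mean log2 CPM reached 1 were ranked by their correlation with Cd74 after each group's mean had been removed, over 24 libraries. Of 12228 genes RT1-Da ranked 1 (r = 0.936), RT1-Ba 4 (r = 0.838), RT1-Bb 11 (r = 0.715) and B2m 1945 (r = 0.235). HRT control replicate 4, the highest HRT control for Cd74, RT1-Da, RT1-Ba and RT1-Bb, was included. How far these values rest on that library was not tested. The 2 genes outside the list with the highest values were ENSRNOG00000033215 (r = 0.922) and ENSRNOG00000051002 (r = 0.843). ENSRNOG00000033215 was at 8.61 CPM in HRT control and 31.6 in HRT overload, and at 6.95 and 25.3 in LRT (rises of 1.87 and 1.86 log2 units, with edgeR adjusted p = 1.22e-06 and 2.47e-06). ENSRNOG00000051002 was at 4.81 and 11 CPM in HRT and 3.17 and 8.39 in LRT (rises of 1.19 and 1.41 log2 units, with edgeR adjusted p = 8.81e-05 and 2.39e-05). These values share libraries and scaling, and RT1 genes may also share reads.

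Ratios of CPM within a library are given as descriptions, with no test. RT1-Da to Cd74 lay between 0.338 and 0.503 over the 24 libraries, with an SD within groups of 0.139 on the log2 scale. RT1-Ba to Cd74 lay between 0.178 and 0.378 (SD 0.221). RT1-Bb to Cd74 spread further, between 0.108 and 0.355 (SD 0.451).

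The alpha and beta chain of the B pair varied in ratio between libraries. The ratio of RT1-Bb to RT1-Ba ran from 0.354 in HRT overload replicate 5 to 1.68 in LRT overload replicate 1, with an SD within groups of 0.595 on the log2 scale. In HRT control it was 0.691, 0.54, 0.94, 0.583, 0.392 and 0.911 in replicates 1 to 6, and in HRT overload 0.652, 0.657, 0.715, 1.32, 0.354 and 1.66. In LRT control it was 0.884, 1.04, 1.67, 0.823, 0.908 and 0.506, and in LRT overload 1.68, 1.46, 0.822, 0.728, 0.874 and 1.13. The group medians were 0.637, 0.686, 0.896 and 1.00 in that order. Ratios above 1 occurred in HRT overload and in both LRT groups but in no HRT control library, and the ranges of the 4 groups overlapped. CPM are not corrected for transcript length, so a ratio of 1 does not mean equal amounts of the chains.

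The ratio of B2m to Cd74 was lower after overload, since both rose and Cd74 rose more. Its median was 5.03 in HRT control (2.35 to 6.48) and 2.55 in HRT overload (2.04 to 2.75), and 4.45 in LRT control (3.26 to 5.78) and 2.25 in LRT overload (1.68 to 3.78). The HRT groups overlapped through control replicate 4 at 2.35, and the LRT groups through overload replicates 5 and 6 at 3.36 and 3.78, with the lowest control at 3.26.

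**Figure D5:**
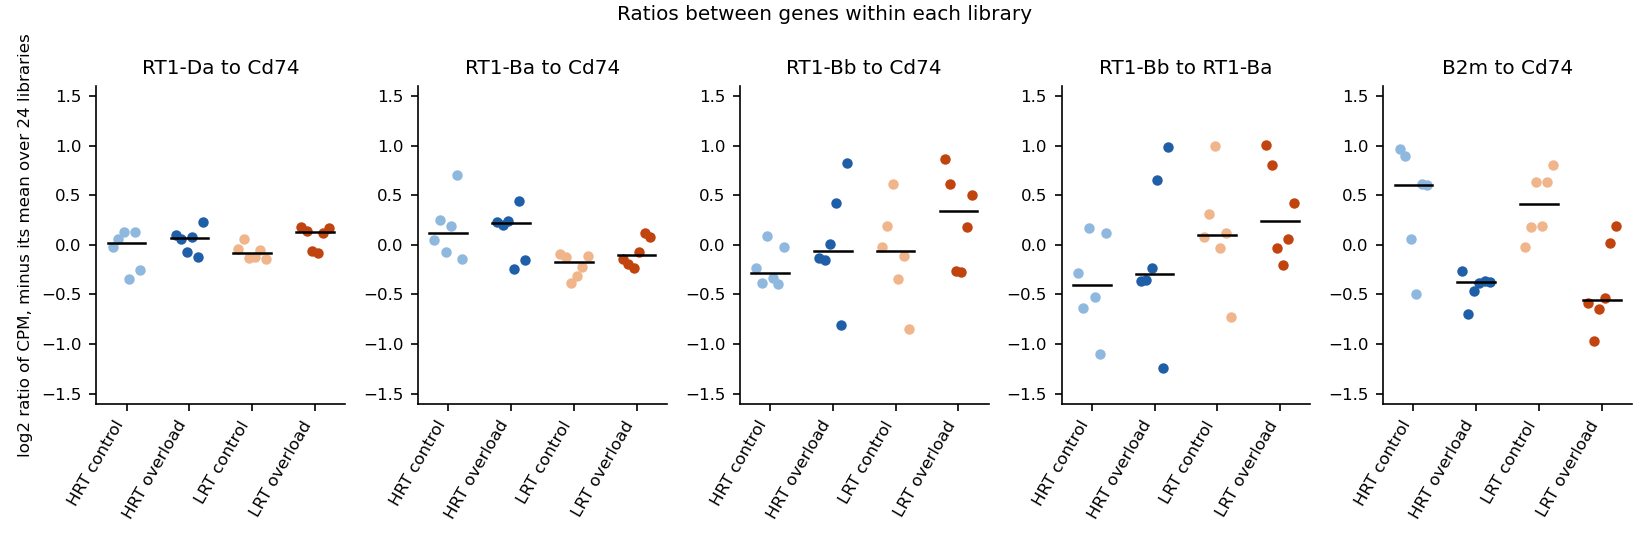
Log2 ratio of CPM between pairs of genes in each library, minus its mean over 24 libraries (vertical), by group, with medians as bars. RT1-Da to Cd74 stays within a narrow band, RT1-Bb to RT1-Ba spreads in each group, and B2m to Cd74 has lower medians in the overloaded groups.

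The spread within groups set RT1-Bb apart in size. Its pooled SD was 0.639 log2 units, and 1.81% of 12229 genes whose mean log2 CPM reached 1 had a larger one. For Cd74, RT1-Ba and RT1-Da it was 0.393, 0.381 and 0.378 (7.29%, 8.18% and 8.39% of genes larger), and for B2m 0.206 (41.4% larger). In HRT, 72.5% of those genes varied more among overloaded than among control libraries, and of the members 1 of 5 did, RT1-Bb. Without HRT control replicate 4, the SD among HRT controls fell from 0.582 to 0.268 for Cd74, beside 0.264 in overload, and from 0.572 to 0.205 for RT1-Ba, beside 0.293. In LRT, 55.0% of genes and 3 of 5 members (Cd74, RT1-Da and RT1-Bb) varied more after overload.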

How the data were processed

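Total RNA was made into TruSeq libraries, per the labels. The authors deposited 1 table of estimated counts per gene, not normalized. Salmon 0.9.1 is listed in the submitters' processing notes, as are rn6 and Rnor_6.0 as genome builds, with annotation and division of shared reads not given in the sources used here. Counts were rounded, since 2.62% of deposited values from 1 upward were whole to within 0.001.

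In R 4.3.3, edgeR 4.0.16 filtered genes (filterByExpr, minimum count 10, minimum total 15), scaled libraries by TMM and fitted 24 libraries in 1 robust quasi-likelihood model with group means. The 5 contrasts were tested over 16661 genes with Benjamini-Hochberg adjustment and a threshold of 0.05. The SE was taken as the change divided by the square root of its F statistic, and 95% intervals use it. Since the labels do not call replicates separate animals, p-values cover only the spread among these libraries, which may be technical. The model was also run on simulated counts in which few genes changed, unlike the overload comparisons here. That run does not test the scaling under so broad a change. No library was a duplicate of another in its group (60 pairs within groups, lowest chi-square per degree of freedom 11.97). Pairs across groups were not checked.

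Exact permutation tests of correlations used scipy 1.17.1. Likeness and spread used log2(CPM + 0.01). Promoters came from RefSeq; the motifs were spelled after these promoters had been read. The table of 47357 named genes matched 0 IDs, so the lists of pathway genes and cell type markers could not be used. Named genes were the 5 members and the 2 gene IDs most like Cd74. The members, lists and tests were chosen with earlier results of these data known. Alternatives were DESeq2 1.42.0 (size factors, Wald test), limma-voom (limma 3.58.1), no filter, library totals, no robust estimation, a filter at a mean count of 50 with 1 CPM reached in 6 libraries, RIN, a replicate block, both together, fits to the compared groups, and leaving out single libraries.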

Additional observations from a re-analysis of the deposited data

Results flagged for a closer look

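In 4 of 20 sets of 6 libraries, 1 library lay far from the others of its group, by a gap of over 0.625 of the group's range. For independent sets of normal values chance would flag about 1 in 20. These CPM were not log-transformed and the genes share libraries, so that rate is only a rough guide. HRT control replicate 4 was the high library for Cd74, at 78.7 CPM, and for RT1-Ba, at 20.8 CPM. It was also the highest HRT control for RT1-Da and RT1-Bb, whose gaps were smaller, and second highest for B2m. LRT control replicate 6 was low for RT1-Bb, at 3.37 CPM. HRT overload replicate 6 was high for B2m, at 455 CPM. The overload calls of these genes held without each of these libraries.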

How the results depend on the processing

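Over 23 other settings, 5 of 5 genes were called upward after overload in LRT, and in HRT there was 1 exception. With the replicate block and RIN together the HRT change of RT1-Bb was 1.21 (edgeR adjusted p = 0.0838), and 4 of 5 genes were called. Over all genes that fit called 7230 in HRT, against 10523 in the main fit. The HRT change of RT1-Bb fell furthest among the members, from 2.15 in the main fit. Cd74 went from 1.78 to 1.52, RT1-Da from 1.94 to 1.56, RT1-Ba from 1.74 to 1.48 and B2m from 1.01 to 0.89. The cause was not tested. The replicate numbers were not taken to pair the libraries, since the labels do not say that they do. As a description, 8 of 24 same-numbered pairs correlated above 0.1 over genes and 6 matched best with their own number. Of these 8, 5 were among the 6 pairs of HRT overload with LRT overload (0.127 to 0.523, the other at −0.150). Pairs that join HRT with LRT libraries cannot be of 1 animal. Low correlations between control and overloaded muscle cannot show whether they share an animal. The block alone changed no call of the members and gave 1.86 for Cd74 in HRT. With single libraries left out, overload changes of Cd74 ran from 1.69 to 2.09 in HRT and 1.70 to 1.89 in LRT. The difference between responses and the line differences were called for 0 of 5 genes under 34, 23 and 23 settings, and the sign of these uncalled values turned in 40 of 170, 17 of 115 and 20 of 115 cases. Counts over all genes moved more: 8 for the difference between responses (1 to 137), 328 for lines in control muscle (154 to 619) and 514 in overloaded muscle (115 to 2153), so the shares given beside the members depend on the setting. Line differences under about 0.4 log2 units in Cd74 and RT1-Da, and larger ones in RT1-Bb, lie within the intervals.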
